A study of Homo sapiens with 21 samples.

Results

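A set of 10 genes of growth factor signalling was followed through a TGFβ time course in HMLE cells, namely the platelet-derived growth factor (PDGF) ligands PDGFA, PDGFB and PDGFC, the PDGF receptors PDGFRA and PDGFRB, the fibroblast growth factor FGF2, the FGF receptors FGFR1, FGFR2 and FGFR3, and the FGF carrier FGFBP1. They were chosen by symbol, and make up 10 of the 23201 gene symbols listed. HMLE, the established line that all samples come from, was made by immortalizing human mammary epithelial cells. Cells were left untreated (d0) or had received TGFβ, a cytokine that induces epithelial-mesenchymal transition (EMT), for 1, 4, 7, 10, 15 or 20 days (d1 to d20), and total RNA was sequenced from 3 biological replicates of each of the 7 timepoints. The samples carry no other treatment, and no untreated cells of the later days were analysed here, so time in culture and TGFβ cannot be told apart. Libraries are called a, b and c within a timepoint in the order of their columns, since the columns carry no replicate number.

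PDGFs and FGFs are secreted growth factors that bind receptor tyrosine kinases at the cell surface, and the paired receptors then recruit adaptors that feed the RAS-ERK and PI3K routes. PDGFs are classically made by epithelial cells while the receptors sit on mesenchymal cells, and FGFR2 and FGFR3 are used mainly by epithelial cells where FGFR1 is typical of mesenchymal cells. FGFs need heparan sulfate chains to bind their receptors, and carriers such as FGFBP1 release them from those chains.

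The unit is the normalised read count, the reads of a gene divided by a size factor for its library. Totals lay between 18847917 and 22667754 reads, and 9 of the 10 genes passed the filter of a mean of at least 10, as did 13343 genes in all. Library c of d7 stood apart: its root mean square log2 difference from libraries a and b was 0.457 to 0.472, against 0.214 to 0.243 in the 18 pairs of libraries at other timepoints. Its distance from the mean of d4 was 0.427 and from that of d20 0.431, while libraries a and b were at 0.506 to 0.531 from the means of d4 and d15, the nearest ones to them. It is the library labelled d7 by its column, and the fold changes and counts at d7 that it moves are also given without it. The 6 basal epithelial markers (KRT5, KRT14, TP63, CDH1, EPCAM and ITGB4) were detected at every timepoint, and the summed 4 mesenchymal markers (VIM, FN1, CDH2 and ZEB1) went from 9285 to 9682 in untreated libraries to between 595208 and 613196 at d20. Of the leukocyte markers, CD68 was detected at every timepoint, with means of 370.5 at d0 and up to 803 at d4, and LYZ had means of 13.8 to 19.5. The leukocyte markers PTPRC and CD3E, the endothelial marker CDH5 and the muscle marker DES were at or under 3 reads throughout. In bulk RNA, fewer cells that express a gene and less RNA per cell cannot be told apart.

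The 3 PDGF ligands and FGFR1 were higher than in untreated cells on all 6 treated days, and FGFR3 and FGFBP1 were lower on all 6. For FGFR1 the d7 libraries overlapped the untreated ones, and that call was lost in 5 of 13 alternatives. By d20, FGFR1 stood at 5.81 times its untreated mean, PDGFRB at 3.03 times and PDGFC at 2.68 times, while the untreated mean was 7.07 times the d20 mean for FGFR3, 3.203 times for FGFBP1 and 2.27 times for FGFR2. PDGFRB, FGF2 and FGFR2 were higher on some days and lower on others. Of all 13343 genes, 14.3% were higher on all 6 days, 8.26% lower on all 6 and 28.7% moved both ways, so the patterns of these genes are each shared by many others.

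**Figure D1:**
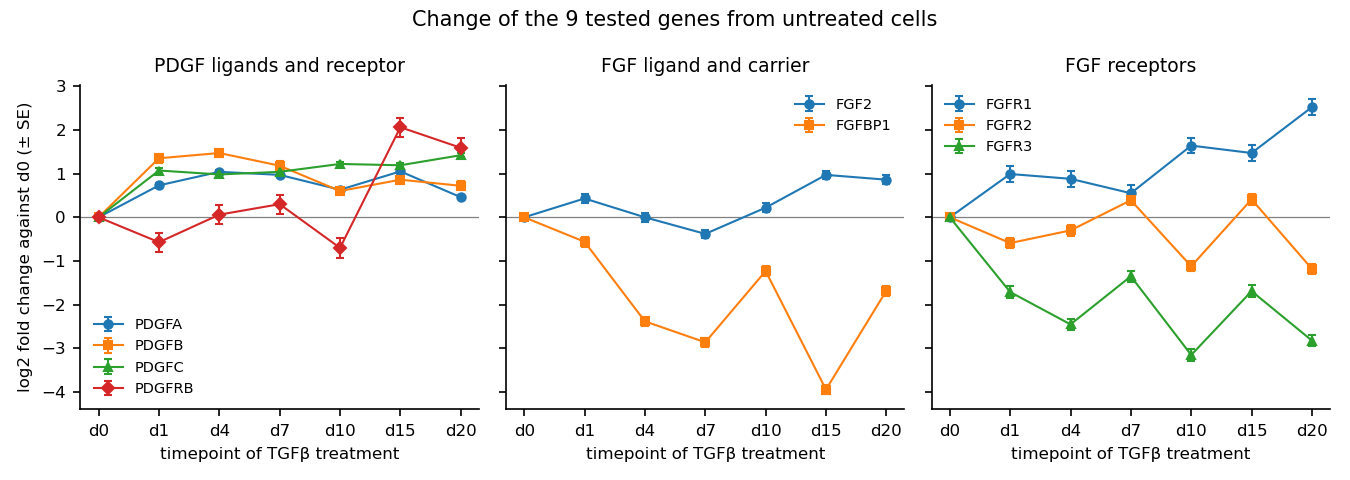
Log2 fold change of each tested gene against untreated cells (y axis, on the log2(value + 1) scale; 0 is untreated) by timepoint (x axis, equally spaced), with bars of 1 standard error from the limma fit and 3 libraries per timepoint. PDGFA, PDGFB, PDGFC and FGFR1 lie above 0 on every treated day and FGFR3 and FGFBP1 below it, and PDGFRB goes from -0.70 at d10 to 2.06 at d15.

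PDGFA encodes the PDGF A chain, the ligand of the PDGF alpha receptor. PDGFA stood at 536, 553 and 572 normalised reads in the untreated libraries, at 921, 902 and 924 in those of d1 and at 1132, 1100.3 and 1192 in those of d4. The d7 libraries held 1017, 1099.9 and 1141 PDGFA reads, the d10 libraries 829, 872 and 866, the d15 libraries 1132, 1158 and 1151 and the d20 libraries 800.3, 781 and 709. Every treated library lay above every untreated library. The log2 fold change was 0.73 ± 0.05 (SE, adjusted p = 6.65e-11) at d1, and it was highest at d15, at 1.05 ± 0.05 (SE, adjusted p = 4.95e-14). The mean of d15, 1147 ± 13.2, did not differ beyond its spread from that of d4 (adjusted p = 0.904), nor that of d4 from d7 (adjusted p = 0.245). The difference between d1 and d10 did not pass the test (adjusted p = 0.146) although their libraries did not overlap. The other neighbours in the order d15, d4, d7, d1, d10, d20 and d0 passed it. The d20 mean of 763 ± 48.1 was the lowest among the treated days.

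PDGFB encodes the B chain, which binds both PDGF receptors. Untreated libraries held 103, 91.6 and 121 normalised reads of PDGFB, d1 libraries 282, 246 and 275 and d4 libraries 279, 297 and 298. Libraries of d7 held 249, 209 and 259.7 PDGFB reads, the d10 libraries 144, 169 and 165, the d15 libraries 198, 192 and 181 and the d20 libraries 193, 165 and 164. The untreated libraries were the lowest throughout, and the d1 and d4 libraries the highest apart from d7 libraries a and c, which overlapped those of d1. The log2 fold change was 1.35 ± 0.10 (SE, adjusted p = 4.01e-10) at d1 and 1.47 ± 0.10 (SE, adjusted p = 5.5e-11) at d4, and it was 0.60 ± 0.10 (SE, adjusted p = 3.21e-05) at d10. In the order d4, d1, d7, d15, d20, d10 and d0, the step from d7 to d15 (adjusted p = 0.0127) and the step from d10 to d0 passed the test and the others did not.

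PDGFC encodes a ligand that is secreted in a latent form and cut by proteases before it binds its receptor. Its normalised read counts were 508, 488 and 494 in untreated cells, 1074, 1009 and 1049 after 1 day of TGFβ and 1016, 995 and 937 after 4 days. After 7 days there were 1028, 981 and 1060.1 PDGFC reads, the d10 libraries 1188, 1179 and 1109.8, the d15 libraries 1131, 1181 and 1089 and the d20 libraries 1309, 1344 and 1334. All 18 treated libraries held between 937 and 1344 reads and the untreated ones at most 508, so the groups were far apart from d1 on. The log2 fold change was 1.07 ± 0.05 (SE, adjusted p = 1.32e-14) at d1 and 1.42 ± 0.05 (SE, adjusted p = 7.11e-17) at d20. The d20 libraries were above all others, and PDGFC at d20 was higher than at d15 by 0.23 ± 0.05 (SE, adjusted p = 0.000116) on the log2 scale. The other treated days lay close together, and d10 and d15 (adjusted p = 0.527), d1 and d7 (adjusted p = 0.582) and d7 and d4 (adjusted p = 0.299) did not differ beyond their spread.

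FGF2, basic FGF, is a heparin-binding ligand that leaves the cell without a signal peptide. In untreated cells FGF2 had 198, 174 and 152 normalised reads, in d1 libraries 247, 214 and 243 and in d4 libraries 179.8, 170.4 and 170.4. On d7 the libraries held 113, 139.7 and 149.8 FGF2 reads, the d10 libraries 209, 197 and 201, the d15 libraries 326, 358 and 343 and the d20 libraries 291, 319 and 337. The d15 and d20 libraries lay above all others, and the d7 libraries below all untreated ones. FGF2 was higher than untreated at d1, by 0.43 ± 0.10 (SE, adjusted p = 0.00102) on the log2 scale, was lower at d7, at -0.38 ± 0.10 (SE, adjusted p = 0.00243), and was higher again at d15, by 0.97 ± 0.10 (SE, adjusted p = 1.64e-08), and at d20, by 0.86 ± 0.10 (SE, adjusted p = 2.29e-07). At d4 the difference was -0.00 ± 0.10 (SE, adjusted p = 0.991) and at d10 0.22 ± 0.10 (SE, adjusted p = 0.06), and neither passed the test. The d10 difference did pass with quantile normalization (0.28, adjusted p = 0.0285), with only 2 groups in the fit (0.22, adjusted p = 0.0466) and without d0 library a (0.31, adjusted p = 0.0147). Without library c the d7 value was -0.46 (adjusted p = 0.000118), with only 2 groups in the fit it lost its call (adjusted p = 0.0612), and the d1 call was lost when libraries were rescaled to equal totals (0.24, adjusted p = 0.051). In the order d15, d20, d1, d10, d0, d4 and d7, the neighbours that passed the test were d20 and d1 (adjusted p = 0.00193) and d4 and d7 (adjusted p = 0.00385). The difference between d1 and d10 did not (adjusted p = 0.12) although their libraries did not overlap. NUDT6 lies on the opposite strand and shares 637 exon bases with FGF2, 9.40% of the FGF2 exons, and whether the counting used strand is not given in the sources used here. The NUDT6 means were between 28.7 and 46.9 normalised reads at the 7 timepoints.

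FGFBP1 encodes a secreted carrier that frees FGFs from heparan sulfate in the matrix. FGFBP1 had 6723, 6898 and 7465 normalised reads in the untreated libraries, 4727, 4820.3 and 4719.8 in d1 libraries and 1346, 1352 and 1335 in d4 libraries. Libraries of d7 had 813, 849 and 1298 FGFBP1 reads, the d10 libraries 2967, 2949 and 3047, the d15 libraries 496, 443 and 434 and the d20 libraries 2096, 2254 and 2234. All treated libraries were below all untreated ones, and the 3 libraries of a timepoint stayed within a narrow range except at d7, where library c was the highest. The log2 fold change was -0.56 ± 0.11 (SE, adjusted p = 0.000102) at d1, -2.38 ± 0.11 (SE, adjusted p = 1.62e-14) at d4 and -2.86 ± 0.11 (SE, adjusted p = 8.81e-16) at d7 (-3.08 without library c). It was -1.23 ± 0.11 (SE, adjusted p = 1.26e-09) at d10, -3.94 ± 0.11 (SE, adjusted p = 2.03e-18) at d15 and -1.68 ± 0.11 (SE, adjusted p = 7.91e-12) at d20. The order was d0, d1, d10, d20, d4, d7 and d15, and every pair of neighbours in it differed, with the smallest gap between d10 and d20 (adjusted p = 0.00166).

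**Figure D2:**
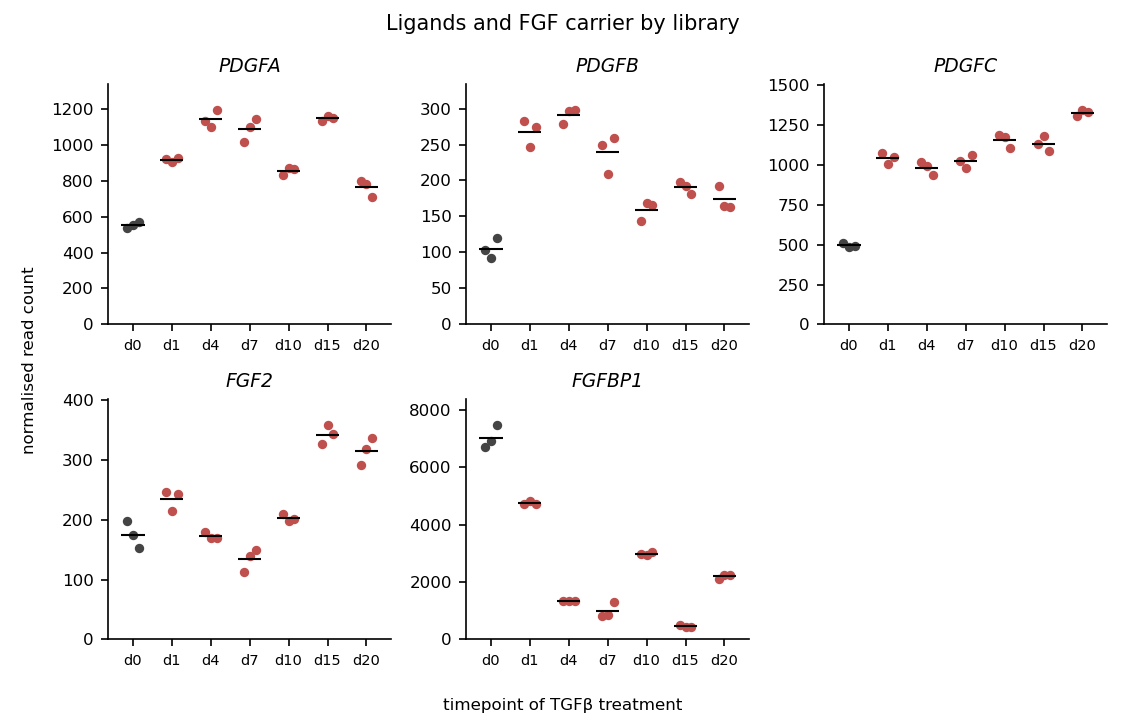
Normalised read count (y axes, linear, from 0) of the ligands and of FGFBP1 in each of the 21 libraries (points, grey for untreated and red for TGFβ) by timepoint (x axis), with the mean of 3 libraries as a line. The untreated libraries are the lowest for PDGFA, PDGFB and PDGFC and the highest for FGFBP1, while FGF2 lies above its untreated libraries at d15 and d20 and below them at d7.

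PDGFRA encodes the alpha receptor for the PDGF A, B and C chains. It was barely detected, with 0 to 8 reads in a library and 64 reads in all 21, and it was therefore left out of the main test. Summed over 3 libraries, there were 4 reads in untreated cells, 17 reads on each of d1 and d4, 9 reads on d7, 6 reads on d10, 0 reads on d15 and 11 reads on d20. The ratio of d1 to d0 was 4.79 with a 95% counting interval of 1.56 to 19.6, which covers counting error only. With no filter on low values, limma gave a log2 difference of 1.62 at d1 (adjusted p = 0.00378) and 1.58 at d4 (adjusted p = 0.00345), and -1.11 at d15 (adjusted p = 0.0301), where all 3 libraries were at 0 reads. These rest on differences of a few reads per library.

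PDGFRB encodes the beta receptor, which the B chain activates. Normalised reads of PDGFRB numbered 37.4, 31.4 and 22.8 in untreated cells, 19.9, 24.6 and 15.9 in the d1 libraries and 27.3, 29.2 and 38.2 in the d4 libraries. The d7 libraries held 48.5, 31.3 and 33.5 PDGFRB reads, the d10 libraries 19.9, 21.4 and 13.7, the d15 libraries 135, 129 and 119 and the d20 libraries 94.3, 99.98 and 83.2. The d15 and d20 libraries lay above all 15 others, the lowest of them at 83.2 and the highest of the others at 48.5. PDGFRB rose between d10 and d15 by 2.76 ± 0.22 (SE, adjusted p = 1.61e-10) on the log2 scale. Against untreated cells it was higher by 2.06 ± 0.22 (SE, adjusted p = 1.94e-08) at d15 and by 1.59 ± 0.22 (SE, adjusted p = 1.58e-06) at d20, and the difference between d15 and d20 did not pass the test (adjusted p = 0.059) although their libraries did not overlap. That difference passed in 5 alternatives (log2 -0.43 to -0.50, adjusted p between 0.000759 and 0.0413), namely a pseudocount of 10, equal library totals, only 2 groups, edgeR and DESeq2. At d10 it was lower than untreated, at -0.70 ± 0.22 (SE, adjusted p = 0.00699), and this call was lost without d10 library c (adjusted p = 0.0551) and with quantile normalization (adjusted p = 0.0758). The d1 value of -0.57 ± 0.22 (SE, adjusted p = 0.0279) passed the test although the groups overlapped, and it was lost without any of d0 libraries a and b and d1 libraries a and c (adjusted p between 0.0565 and 0.144). Quantile normalization, DESeq2 and no filter also ended the d1 call (adjusted p between 0.0509 and 0.0568). At d4 and d7 the differences of 0.06 and 0.30 did not pass (adjusted p = 0.809 and 0.226), and without library c the d7 difference was 0.37 (adjusted p = 0.151). Of 4 pericyte and smooth muscle markers (RGS5, CSPG4, MYH11 and DES) 3 were detected, DES being at the floor, and their sum was 286 to 295 in untreated libraries, 1267 to 2100.1 on d7, 1890.5 to 2064 on d15 and 828 to 968 on d20. At d15 most of that sum was CSPG4, with a mean of 1856 where the mean sum was 1991. Of 4 endothelial markers (PECAM1, CDH5, VWF and KDR) 3 were detected, CDH5 being at the floor. Their sums were 81.1 to 105 in untreated libraries, 67 to 245 on d7, 268 to 289.7 on d15 and 25.4 to 40.2 on d20. The d15 endothelial sum, with a mean of 279.5, was mostly KDR, at 263 against 42.1 at d0. PECAM1 was lower at d15 (9.06 against 41.3), and VWF was at 6.98 against 8.33. The summed proliferation markers (MKI67, TOP2A, CCNB1, CDK1, BIRC5 and PCNA) had their lowest mean at d15, 17002 against 48085 at d0. The part of these in the PDGFRB values was not tested.

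The promoter of PDGFRB is shown because that receptor had the steepest rise between neighbouring timepoints among these genes, and those of FGFR3 and FGFBP1 because both were lower on every treated day. Each is the 250 bases before the RefSeq start on build GRCh38.p14, 5′ to 3′ on the strand of the gene. Windows of 7 of the 10 genes were read. FGFR1 was left out of the reading, and no window was at hand for PDGFB and PDGFC. Capitals mark the letters of a GC box (GGGCGG), an E-box (CACCTG), an AP-1 site (TGANTCA), a SMAD element (CAGAC) or a TATA box (TATAAA), searched on both strands with overlaps allowed.
PDGFRB, chr5:150155846-150156095, minus strand: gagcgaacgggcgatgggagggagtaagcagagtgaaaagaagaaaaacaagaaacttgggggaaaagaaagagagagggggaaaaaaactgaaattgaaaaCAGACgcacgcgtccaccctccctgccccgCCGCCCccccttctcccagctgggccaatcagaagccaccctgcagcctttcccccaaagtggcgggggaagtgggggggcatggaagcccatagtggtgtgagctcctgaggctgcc
FGFR3, chr4:1793043-1793292, plus strand: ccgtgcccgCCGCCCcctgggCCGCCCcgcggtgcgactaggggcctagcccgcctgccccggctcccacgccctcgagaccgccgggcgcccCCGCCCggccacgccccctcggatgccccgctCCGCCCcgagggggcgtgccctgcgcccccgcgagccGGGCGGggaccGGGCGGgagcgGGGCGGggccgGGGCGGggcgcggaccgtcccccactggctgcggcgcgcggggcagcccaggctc
FGFBP1, chr4:15938741-15938990, minus strand: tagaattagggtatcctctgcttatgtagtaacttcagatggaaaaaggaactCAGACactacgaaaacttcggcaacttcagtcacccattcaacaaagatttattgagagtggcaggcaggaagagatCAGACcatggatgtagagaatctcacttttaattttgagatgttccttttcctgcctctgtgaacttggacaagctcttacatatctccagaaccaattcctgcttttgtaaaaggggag

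The FGFR3 stretch was 86.8% G and C and held 8 GC boxes, that of PDGFRB 58.4% with 1 GC box and 1 SMAD element, and that of FGFBP1 40.8% with 2 SMAD elements and no GC box. The median G and C content of all 35116 RefSeq windows, which run from 250 bases before to 50 after the start, was 58.7%. In those windows a GC box was present in 45.0%, an E-box in 20.6%, an AP-1 site in 7.71%, a SMAD element in 45.3% and a TATA box in 11.5%. FGFR3 and FGFBP1, which were lower on the same days, thus share none of the 5 motifs in these stretches.

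FGFR1 encodes the FGF receptor typical of mesenchymal cells. Untreated cells gave 24.03, 27.99 and 16.8 normalised reads of FGFR1, d1 cells 48.1, 48.2 and 40.7 and d4 cells 45.2, 36.03 and 46.02. The d7 libraries gave 27.4, 33.4 and 40.95 FGFR1 reads, the d10 libraries 72.7, 75.8 and 68.5, the d15 libraries 61.2, 54.3 and 78.7 and the d20 libraries 136, 126 and 138. The d20 libraries were above all others, and every treated library was above all untreated ones except d7 library a, at 27.4. The log2 fold change was 0.99 ± 0.18 (SE, adjusted p = 8.5e-05) at d1, 1.64 ± 0.18 (SE, adjusted p = 7.14e-08) at d10, 1.47 ± 0.18 (SE, adjusted p = 2.32e-07) at d15 and 2.52 ± 0.18 (SE, adjusted p = 8.92e-11) at d20. The call at d7, 0.55 ± 0.18 (SE, adjusted p = 0.0106), was lost with libraries rescaled to equal totals (0.37, adjusted p = 0.0767), with quantile normalization (0.38, adjusted p = 0.092), with only 2 groups in the fit (adjusted p = 0.1), without d7 library c (0.41, adjusted p = 0.0558) and without d0 library c (0.36, adjusted p = 0.092). In the order d20, d10, d15, d1, d4, d7 and d0, d10 and d15 (adjusted p = 0.388), d1 and d4 (adjusted p = 0.617) and d4 and d7 (adjusted p = 0.143) did not differ beyond their spread. Without d7 library c, d7 was lower than d4 (-0.47, adjusted p = 0.0378), and with quantile normalization d15 was lower than d10 (-0.48, adjusted p = 0.0291). FGFR1 was among the lower genes in reads, with 17 to 33 reads in each untreated library.

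FGFR2 encodes a receptor whose epithelial splice form binds FGF7 and FGF10, and the gene totals used here do not separate its splice forms. FGFR2 counts were 446, 455 and 443 normalised reads for untreated cells, 287, 323 and 283 for d1 and 365, 360.3 and 365 for d4. The d7 libraries had 739, 658 and 419.8 FGFR2 reads, the d10 libraries 195, 212 and 209, the d15 libraries 598, 603 and 583 and the d20 libraries 209.9, 190.5 and 192. The d7 libraries a and b and the d15 libraries were the highest, and the d10 and d20 libraries the lowest with no overlap with any other day. FGFR2 was lower than untreated, with a log2 fold change of -0.59 ± 0.12 (SE, adjusted p = 0.000337) at d1, -1.12 ± 0.12 (SE, adjusted p = 7.05e-08) at d10 and -1.18 ± 0.12 (SE, adjusted p = 3.85e-08) at d20, and higher by 0.41 ± 0.12 (SE, adjusted p = 0.00549) at d15. From d10 to d15 it rose by 1.53 on the log2 scale (adjusted p = 2.86e-10), and from d15 to d20 the change was -1.59 (adjusted p = 2.65e-10). The d7 value of 0.39 ± 0.12 (SE, adjusted p = 0.00844) was 0.64 without library c and 0.23 (adjusted p = 0.0879) without library a, and with libraries rescaled to equal totals neither d7 (0.20, adjusted p = 0.142) nor d15 (0.25, adjusted p = 0.0684) passed. The d4 value of -0.30 ± 0.12 (SE, adjusted p = 0.035) was lost when any of its 6 libraries was left out (adjusted p between 0.0618 and 0.0789), although all d4 libraries lay below all untreated ones. The fit shares 1 estimate of the spread over the timepoints, and the SD was 166 at d7 against 6.44 at d0 and 2.78 at d4. The d7 and d15 levels did not pass the test against each other (adjusted p = 0.931). There, d7 libraries a and b lay above every d15 library and library c below every one. The levels of d10 and d20 did not differ beyond their spread (adjusted p = 0.736). The summed basal epithelial markers were also highest at d7 and d15, with means of 481656 (326756 in d7 library c) and 390528, and lowest at d10 and d20, with 215399 and 248344, against 323590 at d0. The members of that sum did not move alike. KRT14 was highest at d7 and d15, with means of 162121 and 119038. EPCAM was highest at d0 (2106), against 297 at d7 and 392 at d15. At d15, KRT5 (175809 against 224349) and CDH1 (6337 against 7195) were below d0. TP63 (5389 against 4453) and ITGB4 (83564 against 12714) were above it. The part of these markers in the FGFR2 values was not tested.

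FGFR3 encodes another FGF receptor of epithelial cells, and per length it had the highest level of the 5 receptors in untreated cells. For FGFR3 the untreated libraries gave 4445, 4892 and 4672 normalised reads, the d1 libraries 1462, 1363 and 1442 and the d4 libraries 872, 821 and 861. On d7 they gave 2282, 2195 and 1233 FGFR3 reads, the d10 libraries 526, 544 and 508, the d15 libraries 1379, 1434 and 1529 and the d20 libraries 666, 686 and 631. No treated library came near the untreated range, and the highest, d7 library a, was at 2282. The log2 fold change was -1.71 ± 0.13 (SE, adjusted p = 4.72e-10) at d1, -2.45 ± 0.13 (SE, adjusted p = 7e-13) at d4 and -3.15 ± 0.13 (SE, adjusted p = 1.19e-14) at d10. It was -1.69 ± 0.13 (SE, adjusted p = 2.27e-10) at d15 and -2.82 ± 0.13 (SE, adjusted p = 7.47e-14) at d20, and -1.35 ± 0.13 (SE, adjusted p = 1.79e-08) at d7, or -1.06 without library c. In the order d0, d7, d15, d1, d4, d20 and d10, d15 and d1 (adjusted p = 0.875) and d20 and d10 (adjusted p = 0.0521) did not pass the test. The d20 libraries nevertheless all lay above those of d10. The test shares 1 estimate of the spread over the 7 timepoints, and the SD was 582 at d7 against 17.8 at d10 and 28.1 at d20.

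**Figure D3:**
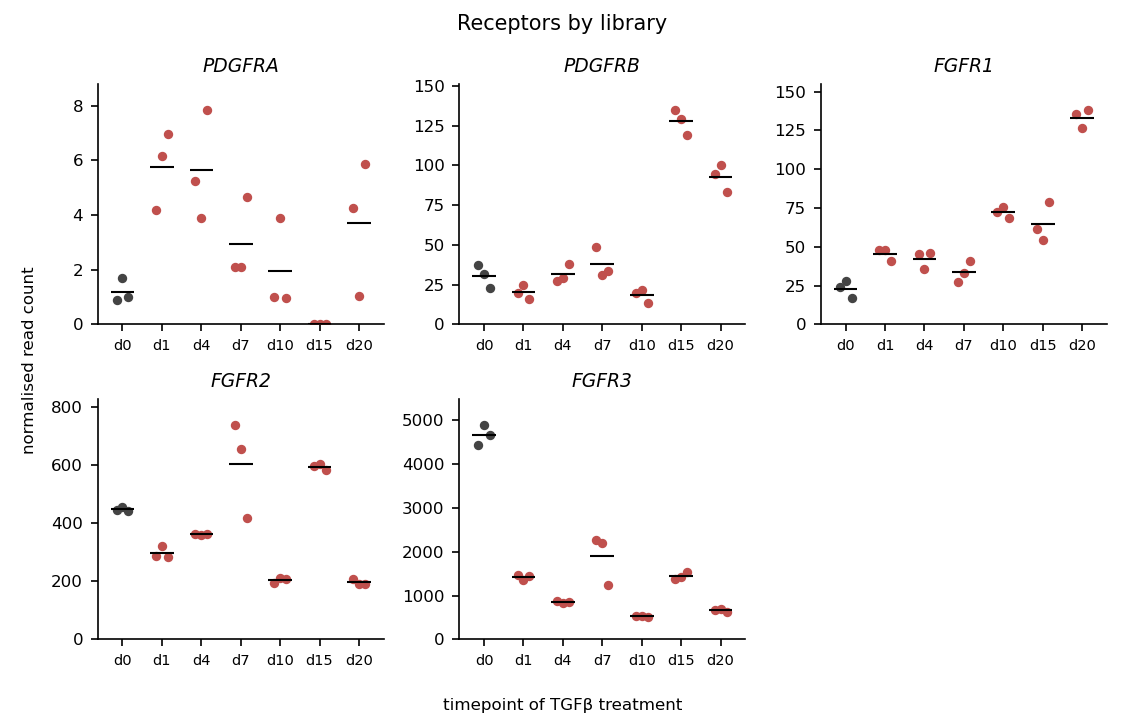
Normalised read count (y axes, linear, from 0) of the 5 receptors in each of the 21 libraries (points, grey for untreated and red for TGFβ) by timepoint (x axis), with the mean of 3 libraries as a line. FGFR2 and FGFR3 have a low d7 library c, PDGFRB is high at d15 and d20, FGFR1 is highest at d20, and PDGFRA stays under 8 normalised reads.

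Per kilobase of the longest coding transcript, FGFR3 led the receptors at every timepoint and FGFR2 came next. The FGFR3 level per kilobase was 1052 at d0 and 149 at d20, that of FGFR2 103 and 45.2, and that of FGFR1 3.79 and 22.03. PDGFRB was at 5.34 and 16.2 per kilobase, and it and FGFR1 exchanged places between timepoints. The order was the same with the summed length of all exons. The FGF receptors thus drew closer together in level without a change in which was the most abundant.

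Ratios of genes within a library do not depend on how that library was scaled. The ratio of FGFR1 to FGFR2 was 0.0511 ± 0.0120 (SD, n = 3) in untreated cells, 0.352 ± 0.0231 at d10, 0.109 ± 0.0233 at d15 and 0.676 ± 0.0382 at d20, which is 13.2 times the untreated ratio. The ratio of FGFR1 to FGFR3 went from 0.00491 ± 0.00114 to 0.202 ± 0.0175, or 41.2 times. The untreated FGFR1 to FGFR2 ratios ranged from 0.0380 to 0.0614. At d7, library a lay just below that range at 0.0371, library b within it at 0.0507 and library c above it at 0.0976. On the other 5 treated days every library lay above it. The ratio of FGFR3 to FGFR2 went the other way, from 10.4 ± 0.399 to between 2.34 at d4 and 4.81 at d1.

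**Figure D4:**
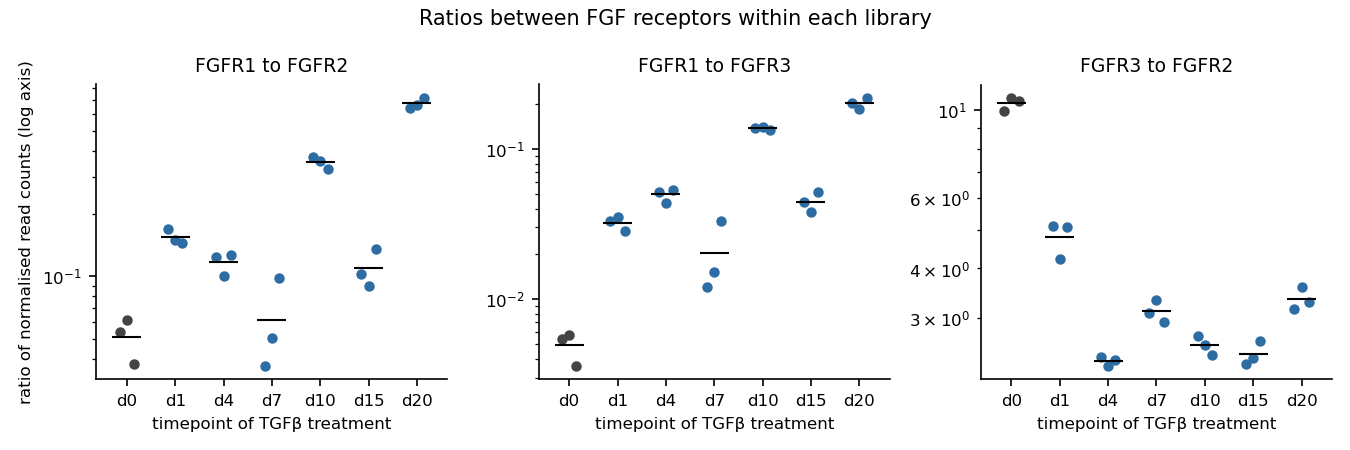
Ratio of normalised read counts within each library (y axes, logarithmic) for 3 pairs of FGF receptors by timepoint (x axis), with points for libraries (grey untreated, blue TGFβ) and a line for the mean of 3. The FGFR1 to FGFR2 ratio is highest at d20, at 0.676. It overlaps the untreated libraries at d7 alone, where library a lies just below them, library b among them and library c above them. The FGFR3 to FGFR2 ratio is lower in every treated library than in untreated ones.

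All 9 tested genes differed among the 7 timepoints by limma's moderated F test, as did 95.9% of all genes. Counted by day, 5 of the 9 were higher and 4 lower on d1, where 31.3% of all genes were higher and 28.5% lower. On d4, 4 were higher and 3 lower (36.9% and 35.3% of all genes), and on d7, 5 were higher and 3 lower (34.6% and 32.6%), which became 4 and 3 without library c. On d10, 4 were higher and 4 lower (37.0% and 30.7%). On d15, 7 were higher, with FGFR3 and FGFBP1 the 2 lower (39.2% and 37.3%), and on d20, 6 were higher and 3 lower (32.5% and 30.2%).

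With a change of at least 2-fold, PDGFB and PDGFC were higher on d1 and FGFR3 lower, against 6.47% and 3.87% of all genes. On d4, PDGFA and PDGFB passed as higher (9.68% of all genes) and FGFR3 and FGFBP1 as lower (5.03%), and on d7, PDGFB and PDGFC as higher (8.79%) and the same pair as lower (2.93%). On d10, PDGFC and FGFR1 passed as higher (6.94%), with FGFR2, FGFR3 and FGFBP1 as lower (7.34%). On d15, PDGFA, PDGFC, PDGFRB and FGFR1 were higher by at least 2-fold (11.7%), and FGFR3 and FGFBP1 lower (8.66%). On d20, PDGFC, PDGFRB and FGFR1 were higher (7.51%) and FGFR2, FGFR3 and FGFBP1 lower (4.72%). The 9 genes had a median absolute log2 change of 0.73 at d1 and 1.42 at d20, against 0.26 and 0.28 over all genes. The genes were chosen with earlier results of these data known.

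Between neighbouring treated days, all 9 genes differed only from d7 to d10, with 4 higher at d10 and 5 lower (36.2% and 35.2% of all genes). All 9 also differed from d0 to d1, as given above. From d1 to d4, 3 were higher and 3 lower (32.9% and 32.0%), and from d4 to d7 2 and 3 (25.5% and 25.5%), the 3 lower becoming 4 without d7 library c. From d10 to d15, 6 were higher and FGFBP1 alone lower (39.3% and 40.5%), and from d15 to d20 PDGFC, FGFR1 and FGFBP1 were higher and PDGFA, FGFR2 and FGFR3 lower (37.7% and 36.3%). PDGFA, FGFR2 and FGFR3 fell, rose and fell over the 3 steps from d7 to d20, as did 24.6% of all genes, and FGFBP1 rose, fell and rose, as did 26.2%. This pattern was chosen after the values were seen.

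Other genes of the same pathways were counted from 9 lists of 97 genes, of which 69 passed the filter. At d20, 35 were higher and 18 lower, where 32.5% of all genes were higher and 30.2% lower, and with libraries rescaled to equal totals the split was 27 and 25. At d7 they were 43 and 14 (46 and 15 without library c, 36 and 20 with equal totals), against 34.6% and 32.6% of all genes. With equal totals the split became 24 and 27 at d1 (35 and 15 as reported), 38 and 16 at d4 (46 and 7), 25 and 31 at d10 (34 and 18) and 37 and 20 at d15 (42 and 14). The median log2 fold change of the 69 was 0.36 at d7 and 0.17 at d20, against 0.00 over all genes on both days. Of the 3 other genes of the FGF family tested out of 21, the ligand FGF5 was higher at d20, 726 ± 14.3 normalised reads against 271 ± 7.04 (log2 1.42 ± 0.07, adjusted p = 1.6e-13). The family member FGF11 was higher too (log2 0.49 ± 0.09, adjusted p = 0.000109). FGF1, which binds all FGF receptors, was lower, 243 ± 4.82 against 554 ± 18.9 (log2 -1.19 ± 0.12, adjusted p = 2.34e-08). FGFR4 was lower at d20 as well (log2 -0.73 ± 0.20, adjusted p = 0.00339). Of the other PDGF ligands and receptors, 1 of 2 passed the filter and it did not pass the test at d20.

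Genes for heparan sulfate core proteins and the enzymes that build and trim the chains were higher in 15 of 17 at d7 and lower in none (34.6% and 32.6% of all genes), in 14 against 1 at d15 (39.2% and 37.3%), and in 8 against 5 at d20 (32.5% and 30.2%). On d1 the counts were 7 and 4 (31.3% and 28.5%), on d4 12 and 1 (36.9% and 35.3%) and on d10 6 and 6 (37.0% and 30.7%). NDST1, which sulfates the chains, went from 4252 ± 101 to 9929 ± 65.7 normalised reads at d20 (log2 1.22 ± 0.06, adjusted p = 3.22e-14), and the syndecan SDC2 from 11.6 ± 2.81 to 35.6 ± 4.32 (log2 1.55 ± 0.24, adjusted p = 7.93e-06). SULF1, an enzyme that removes sulfate groups from the chains, was lower at d20 (log2 -1.02 ± 0.16, adjusted p = 7.39e-06) and higher at d15 (log2 1.03 ± 0.16, adjusted p = 4.05e-06). Of the 18 adaptors and enzymes that dock on activated receptors, 10 were higher and 3 lower at d20, against 32.5% and 30.2% of all genes. The adaptor NCK2 stood at 3466 ± 40.6 against 819 ± 13.04 (log2 2.08 ± 0.06, adjusted p = 2.13e-17), the RAS GTPase activator RASA1 was higher too (log2 0.84 ± 0.06, adjusted p = 5.66e-11), and the docking protein GAB1 was lower (log2 -0.94 ± 0.08, adjusted p = 1.22e-09).

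Of the 8 transcriptional targets of FGF and ERK signalling, 6 were higher and 1 lower on each of d1 (31.3% and 28.5% of all genes) and d20 (32.5% and 30.2%). On d4, 7 were higher and 0 lower (36.9% and 35.3%), and on d7 4 and 2 (34.6% and 32.6%), which became 5 and 3 without library c. On d10 the counts were 6 and 0 (37.0% and 30.7%), and on d15 3 and 1 (39.2% and 37.3%). FOSL1, an AP-1 subunit, was at 417 ± 146 normalised reads at d0, 1419 ± 74.9 at d1, 408 ± 31.8 at d15 and 1228 ± 134 at d20, where the log2 fold change was 1.60 ± 0.18, adjusted p = 9.47e-08. IER3 (log2 1.70 ± 0.08, adjusted p = 2e-14) was higher at d20 too, and the cell cycle gene CCND1 stood at 3805 ± 58.5 against 1346 ± 91.5 (adjusted p = 1.03e-17). Of the 9 feedback inhibitors of receptor tyrosine kinases, 6 were higher and 1 lower at d1 (31.3% and 28.5% of all genes) and at d4 (36.9% and 35.3%). At d7 there were 3 and 1 (34.6% and 32.6%), which became 4 and 3 without library c. Later counts were 6 and 1 at d10 (37.0% and 30.7%), 3 and 3 at d15 (39.2% and 37.3%), and 4 and 2 at d20 (32.5% and 30.2%). The ERK phosphatase DUSP4 (log2 1.69 ± 0.07, adjusted p = 3.42e-15) and SPRY4 (log2 1.68 ± 0.13, adjusted p = 1.82e-10) were higher at d20, while SPRY1 was lower (log2 -1.77 ± 0.22, adjusted p = 3.74e-07).

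Of the 7 PDGF processing and binding proteins, 4 were higher and 2 lower at d20, against 32.5% and 30.2% of all genes. PLAU, the urokinase protease, was higher (log2 1.95 ± 0.05, adjusted p = 5.06e-18), as was SPARC, a matrix protein that binds PDGF (log2 1.03 ± 0.04, adjusted p = 1.2e-14), and ST14, an epithelial membrane protease, was lower (log2 -1.90 ± 0.05, adjusted p = 9.47e-19). Of 4 regulators of FGFR2 splicing, 1 was higher and 3 lower at d20, against 32.5% and 30.2% of all genes. ESRP2, which favours the epithelial form, was lower at d20 (log2 -0.97 ± 0.08, adjusted p = 5.81e-10). ESRP1 was lower at d20 as well (log2 -1.02 ± 0.05, adjusted p = 4.18e-14), and RBFOX2 was higher (log2 0.39 ± 0.04, adjusted p = 7.9e-08). PTBP1 was the remaining regulator that was lower at d20. ESRP2 was lower on every treated day. ESRP1 was lower at d1 and d10 too, but higher at d4 (log2 0.26, adjusted p = 5.53e-05) and d7 (log2 0.13, adjusted p = 0.0189). At d15 it did not pass the test (adjusted p = 0.151).

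**Figure D5:**
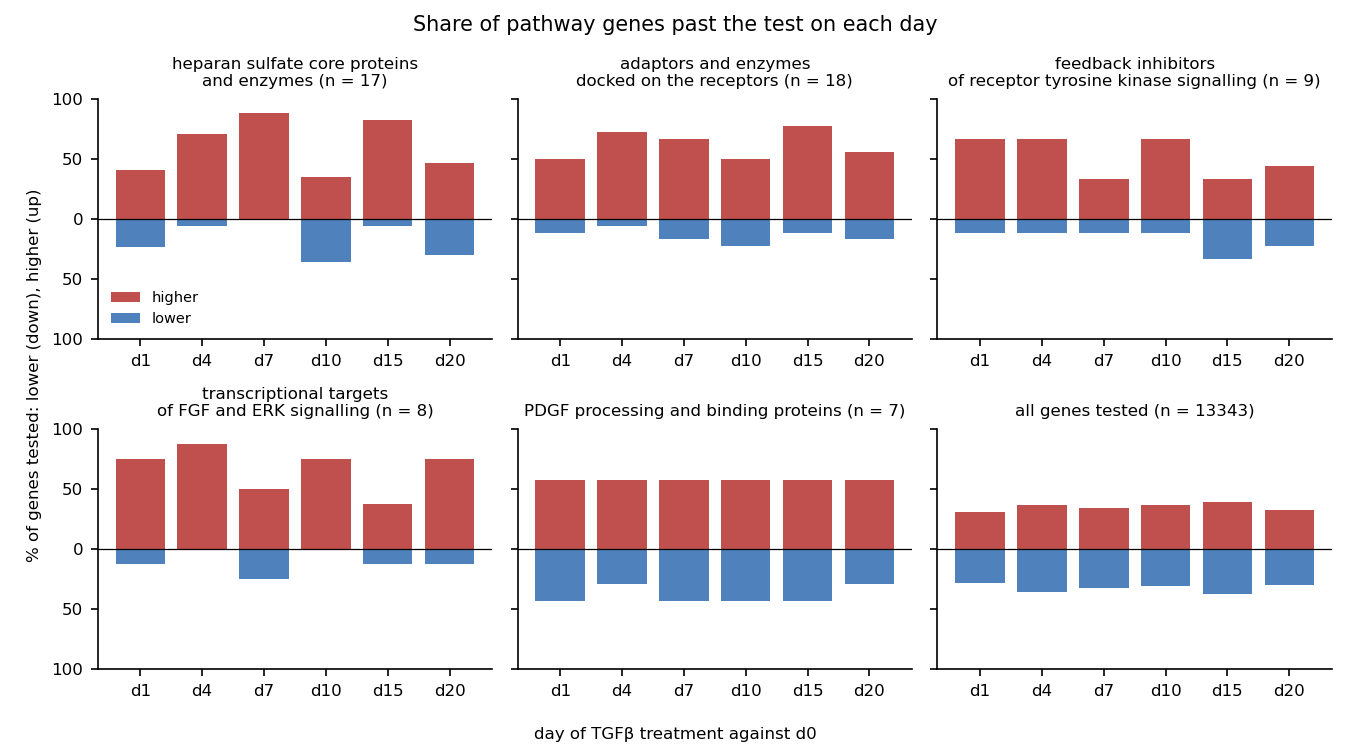
Share of the tested genes of 5 pathway lists that were higher (red, upward) or lower (blue, downward) than untreated on each treated day (x axis) at an adjusted p under 0.05, with all 13343 tested genes at the lower right and n the number tested (y axes in percent). Heparan sulfate genes were higher in 15 of 17 at d7, and the FGF and ERK targets higher in 7 of 8 at d4 and in 3 of 8 at d15.

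The genes whose course was most like that of each gene were found by the root mean square difference over the 6 log2 fold changes against untreated cells, as a description of 7 timepoints. PDGFA lay nearest to TMEM130 and STBD1 (0.08 each), PDGFC to SLC26A2 and QSOX1 (0.10 each) and PDGFB to SRC and STON2 (0.20 each). FGFR2 lay nearest to DSC3 (0.16) and NEIL1 (0.17), FGFR3 to C1orf210 (0.22) and TFAP2C (0.36), and FGFR1 to PMP22 (0.24) and LOXL1 (0.31). FGF2 lay nearest to TRIB3 (0.16) and FBXL13 (0.25), FGFBP1 to GPR110 (0.16) and PLAT (0.52), and PDGFRB to SELM (0.48) and LOC645638 (0.50). Among the 9 genes themselves, the nearest pair was PDGFA and PDGFB (0.35) and the farthest FGFR1 and FGFR3 (3.73).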

How the data were processed

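HMLE RNA-seq libraries, 3 at each of 7 timepoints, were grouped by the labels. The authors deposited a signal per gene and library, a normalised read count: reads divided by a size factor for the library and rounded to 2 decimals, from which whole reads were recovered (within 0.1 reads), and the factors differed by at most 0.031% from median-of-ratios factors. The submitters' processing notes name STAR 2.7, Salmon 1.4 and hg19; the annotation is not given in the sources used here. Depth was 18847917 to 22667754 reads per library. The test was limma 3.58.1 (R 4.3.3; linear fit, contrasts and empirical Bayes with a trend) on log2(value + 1) for genes whose mean was at least 10, with 1 mean per timepoint over all 21 libraries, with Benjamini-Hochberg adjustment over 13343 genes within each contrast and a threshold of 0.05. Fold changes are on the log2(value + 1) scale, which understates the change of low genes. Alternatives were a pseudocount of 10, no filter (19546 genes), quantile normalization, rescaling to equal totals, a fit of only 2 groups, edgeR 4.0.16 (quasi-likelihood) and DESeq2 1.42.0 on the recovered reads, and each library left out. Recovered reads were whole for 100% of the values. The scripts were tested on simulated data. Lengths came from GENCODE 29 and promoter windows from RefSeq (GRCh38.p14). Named genes are the 10 genes, NUDT6, PTBP1 and the 3 genes of each pathway list with the largest change at d20 among those past the test. The 2 nearest profiles of each gene and the cell type markers are also named. The genes and lists were chosen with earlier results of these data known.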

Additional observations from a re-analysis of the deposited data

Results flagged for a closer look

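For 3 of the genes, the change against untreated cells went in opposite directions on different days, and the difference between those days was tested itself with limma. PDGFRB was higher than untreated at d15 (log2 2.06) and lower at d10 (log2 -0.70), a difference of 2.76 ± 0.22 (SE, adjusted p = 1.61e-10). FGF2 was higher at d15 (log2 0.97) and lower at d7 (log2 -0.38), a difference of 1.35 ± 0.10 (adjusted p = 3.94e-10). FGFR2 was higher at d15 (log2 0.41) and lower at d20 (log2 -1.18), a difference of 1.59 ± 0.12 (adjusted p = 2.65e-10). The days were chosen as those with the highest and lowest called values, so these p-values take no account of that choice. Calls in 1 direction were lost in alternatives for each gene: PDGFRB at d10 with quantile normalization (adjusted p = 0.0758) and without d10 library c (adjusted p = 0.0551), FGF2 at d7 with only 2 groups in the fit (adjusted p = 0.0612), and FGFR2 at d15 with equal totals (adjusted p = 0.0684). Both days of each pair are compared with the same untreated libraries, which cancel in the difference. Over all genes tested, 28.7% were higher on at least 1 day and lower on another.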

How the results depend on the processing

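For the 9 tested genes, 1217 of 1287 alternatives over 99 comparisons kept their direction and side of the threshold, 48 lost the call, 11 gained it and 11 changed sign. Of 50 calls against untreated cells, 42 held in every alternative run, and the 8 that did not are those of PDGFRB at d1 and d10, FGF2 at d1 and d7, FGFR1 at d7, and FGFR2 at d4, d7 and d15. Rescaling each library to the same total moved the median over all genes of the log2 change from d0 to -0.14 at d15 to -0.20 at d20. With it, 3 of the genes were higher at d7 in place of 5, as with only the 2 groups compared, and the pathway genes that were lower numbered 27 at d1 in place of 15, 16 at d4 in place of 7 (12 with quantile normalization) and 31 at d10 in place of 18. From d1 to d4, 1 gene was higher with quantile normalization in place of 3, and 1 to 3 with a library left out (1 without d1 library c or d4 library c). From d4 to d7, 0 were lower in place of 3 with only the 2 groups compared, and from d10 to d15, 2 in place of 1 with quantile normalization. Sign changes were all in differences that did not pass the test. PDGFC from d10 to d15 was 0.04 with the same total and 0.08 with quantile normalization (-0.03 as reported), PDGFRB at d4 was -0.13 and -0.02 (0.06 as reported), and FGF2 at d10 was -0.01 with the same total (0.22 as reported). With a library left out, PDGFRB at d4 ranged from -0.13 to 0.22, FGF2 at d4 from -0.09 to 0.09, and FGFR1 from d1 to d4 from -0.19 to 0.00. With a pseudocount of 10, the log2 ratio at d20 minus d0 was 3.28 in place of 3.75 for FGFR1 to FGFR2 and 4.94 in place of 5.39 for FGFR1 to FGFR3. The cause was not tested. Labels number the replicates. No paired analysis was possible because column names give a timepoint without a replicate. Depth limits PDGFRA, at 0 to 8 reads per library, and the untreated levels of FGFR1, at 17 to 33.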
